A study of Homo sapiens with 8 samples.

Results

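CYR61, CTGF, ANKRD1, AMOTL2, LATS2 and AXL are 6 genes known as targets of the transcriptional co-activator YAP and its DNA-binding partners, the TEAD factors. They make up 6 of the 28518 gene rows of the deposited count table, where CYR61 and CTGF (now CCN1 and CCN2) carry their older symbols. The rule took the rows by name, but the genes were chosen by values already seen in these libraries, namely the higher CYR61 and ANKRD1 with the CARD14 variants. Differences of the 6 genes between constructs are therefore given below as a description. The fits over all genes include them, and nothing is read from their calls there. The libraries came from HaCaT, an immortalised human keratinocyte line, with the genotype CARD14 KO in every group. Each group received 9 ug of one plasmid in a 10 cm dish, coding for CARD14 joined by a T2A self-cleaving peptide to eGFP, and cells positive for GFP were collected by sorting at 24 h. The plasmids were CARD14-WT-T2A-eGFP (WT), CARD14-R820W-T2A-eGFP, CARD14-N737H-T2A-eGFP and CARD14-I593T-T2A-eGFP, with 2 libraries per construct, A and B. Every group thus expressed CARD14 from a plasmid in 1 cell line, no library without plasmid was analysed here, and how many knockout clones were used is not given in the sources used here.

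YAP and its relative TAZ enter the nucleus when cells spread, lie sparsely or sense a stiff matrix, and bind TEAD factors there. The Hippo kinases LATS1 and LATS2 phosphorylate YAP and hold it in the cytoplasm. In epidermis, YAP is known for its part in the proliferation of basal keratinocytes. CYR61 and CTGF code for secreted matricellular proteins of the CCN family, which bind integrins. ANKRD1 codes for an ankyrin-repeat protein that shuttles between the sarcomere or cytoplasm and the nucleus. AMOTL2, an angiomotin family member, and LATS2 restrain YAP and are themselves induced by it. AXL codes for a receptor tyrosine kinase whose ligand is GAS6.

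TEAD factors bind a short motif, GGAATG, and the promoters of 5 of the 6 genes could be matched in the RefSeq promoter table (GRCh38.p14). CYR61 had no entry. The motif was searched on both strands (GGAATG or CATTCC) in the 250 bases before each annotated start. It occurred in at least 1 promoter of 4 of the 5 matched genes, CTGF, ANKRD1, AMOTL2 and AXL, and in 14.3% of the 27305 genes of that table. Of 16 further YAP and TEAD targets described below, 12 were matched and 4 of these had it. The promoters of CTGF and ANKRD1 are shown as those with most copies, and that of AMOTL2 because its motif lies on the other strand. Capitals mark the motif, and each sequence runs 5′ to 3′ on the gene's strand.
CTGF (chr6:131951373-131951622, minus strand): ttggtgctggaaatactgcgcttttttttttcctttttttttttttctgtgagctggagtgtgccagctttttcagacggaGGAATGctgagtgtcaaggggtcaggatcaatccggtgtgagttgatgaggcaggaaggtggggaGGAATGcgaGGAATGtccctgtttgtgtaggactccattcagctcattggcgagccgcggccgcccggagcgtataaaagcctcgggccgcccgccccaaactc
ANKRD1 (chr10:90921088-90921337, minus strand): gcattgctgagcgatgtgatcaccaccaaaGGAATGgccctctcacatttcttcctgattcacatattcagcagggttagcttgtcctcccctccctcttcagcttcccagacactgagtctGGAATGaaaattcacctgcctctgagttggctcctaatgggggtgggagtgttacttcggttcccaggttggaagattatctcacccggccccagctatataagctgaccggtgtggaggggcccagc
AMOTL2 (chr3:134374448-134374697, minus strand): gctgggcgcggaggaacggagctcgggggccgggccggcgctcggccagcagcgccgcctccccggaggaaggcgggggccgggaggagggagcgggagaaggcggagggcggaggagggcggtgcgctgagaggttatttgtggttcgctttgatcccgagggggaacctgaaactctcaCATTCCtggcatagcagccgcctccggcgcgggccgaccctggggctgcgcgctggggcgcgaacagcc

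The CTGF promoter held 3 copies of the motif, starting 169, 104 and 95 bases before the start. Of the 35116 promoters in the table, 0.0826% had 3 or more copies. ANKRD1 had 2 copies, at 220 and 128 bases, and 0.94% of promoters had 2 or more. AMOTL2 and AXL each have 2 annotated starts, and 1 of these held a single copy, as did 11.9% of promoters with at least 1. The LATS2 window held no match. A match is a description of the letters only, and whether TEAD factors occupied these sites in HaCaT was not measured here. Whether the copies bear on the RNA levels below was not tested.

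**Figure D1:**
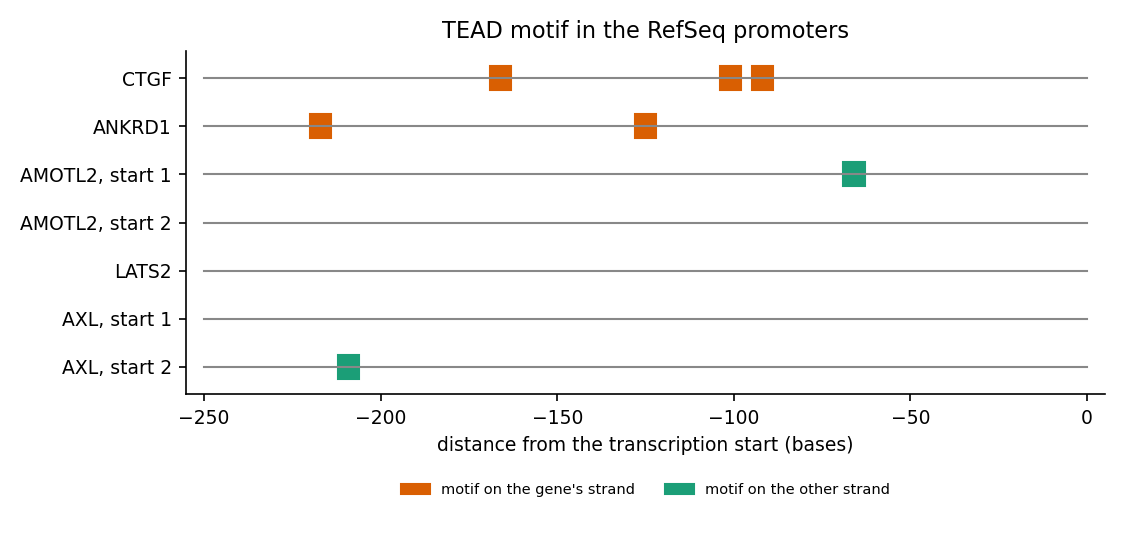
Position of the TEAD motif (GGAATG on the gene's strand, or its reverse complement) in the 250 bases before each annotated start of the 5 matched genes; the x axis is the distance from the start in bases. CTGF has 3 copies, ANKRD1 has 2, and 1 start each of AMOTL2 and AXL has 1.

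Library totals ran from 17892608 to 24629860 counts. The keratinocyte markers KRT5, KRT14, KRT17, TP63, DSP and CDH1 were at 171 CPM (read counts scaled to library size) or more in every library. All 6 fibroblast markers, which matter here because fibroblasts express CYR61, CTGF and AXL strongly, had a mean under 1 CPM, and their summed level was 0.458 to 1.16 CPM in the WT libraries and 0.564 to 1.79 in the variant libraries. The endothelial and leukocyte markers also had means under 1 CPM, with sums of at most 2.41 and 0.193 CPM, and the melanocyte markers summed to 1.65 to 3.04 CPM with TYR at 0. CARD14 RNA was 1127 and 978 CPM in WT A and B, 1190 and 1410 with R820W, 444.1 and 1005 with N737H, and 499.6 and 1394 with I593T. On the first principal component, with 33.3% of the variance, A and B libraries lay on opposite sides. The part of these values in the results below was not tested.

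CYR61 RNA was higher than in WT in all 6 variant libraries. WT A and B had 57.1 and 45.5 CPM. R820W had 107 and 93.1 CPM, N737H 86.1 and 149, and I593T 110 and 260. The lowest variant library, N737H A, lay above the higher WT library, and the highest, I593T B, stood apart from its partner by a ratio of 2.37. Over all genes tested, 2.47% had all 6 variant libraries above both WT libraries. Fitted against WT, R820W had a log2 fold change of 0.96 ± 0.40 (SE, n = 2 per group), N737H 1.20 ± 0.41 and I593T 1.85 ± 0.41. Within the A libraries the 3 ratios to WT were 1.88, 1.51 and 1.92, and within the B libraries 2.04, 3.28 and 5.71. The constructs were therefore close to each other in A and spread out in B. Without I593T replicate B the I593T value was 1.10, and without N737H replicate B the N737H value was 0.78. In bulk RNA, more cells with CYR61 RNA and more of it per cell cannot be told apart.

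CTGF, the other CCN gene, was sparse, with 12 to 107 counts per library. The A and B libraries of WT had 1.69 and 0.579 CPM, those of R820W 1.20 and 0.706, those of N737H 1.31 and 1.97, and those of I593T 1.65 and 5.29. Only I593T B stood clearly above the rest, with 107 counts (exact 95% Poisson interval 87.7 to 129, counting error only) against 12 (6.2 to 21) in WT B. The 4 A libraries had 27 to 41 counts, with intervals that overlapped one another. With I593T the log2 fold change was 1.60 ± 0.70 (SE, n = 2 per group), and it was 0.54 without I593T replicate B and 2.56 without WT replicate A. N737H had 0.52 ± 0.71 and R820W -0.25 ± 0.72, and these were -0.037 and -0.82 without WT replicate B and 1.49 and 0.72 without WT replicate A. Each variant group overlapped WT. CTGF thus differed from CYR61 in the A libraries, where its ratios to WT were 0.705, 0.773 and 0.975, and resembled it in B, with 1.22, 3.40 and 9.14.

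ANKRD1 RNA was higher with N737H and I593T than with WT or R820W. WT A and B had 4.08 and 4.49 CPM, and R820W, with 5.60 and 3.21, straddled WT. With N737H it was at 7.61 and 11.4, and with I593T at 8.09 and 16.2. All 4 of these libraries lay above the 4 libraries with WT or R820W, as for 0.701% of all genes tested, a separation picked after the values were seen. The log2 fold change of I593T over WT was 1.50 ± 0.42 (SE, n = 2 per group), or 0.92 without I593T replicate B. That of N737H was 1.15 ± 0.42. That of R820W was 0.048 ± 0.42 and took either sign with 1 library left out, from -0.44 to 0.39.

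**Figure D2:**
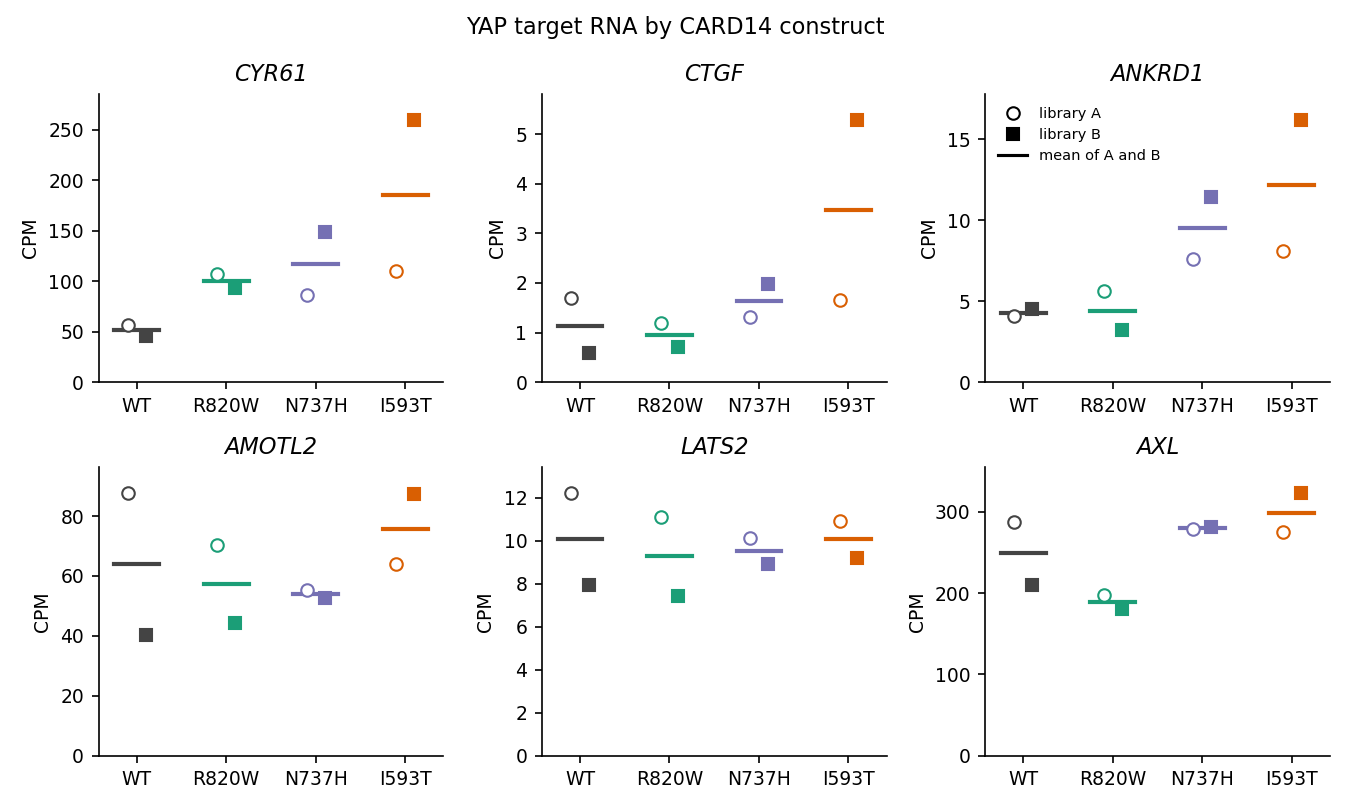
CPM (y axis, from 0) of the 6 YAP target genes in each library by construct (x axis); open circles are A, filled squares B, and bars the mean of both. CYR61 lies above WT in all 6 variant libraries, ANKRD1 in all 4 libraries with N737H or I593T, and CTGF is highest in I593T B at 5.29 CPM.

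The 2 genes that restrain YAP did not share this order. AMOTL2 had 87.6 and 40.3 CPM in WT A and WT B, a wider gap than in any variant. It was at 70.4 and 44.3 with R820W, 55.4 and 52.5 with N737H, and 63.9 and 87.5 with I593T. All 3 variants lay below WT in A and above it in B. Over both letters the log2 fold change was -0.16 with R820W, -0.24 with N737H and 0.24 with I593T (SE 0.37, n = 2 per group). Without WT replicate A all 3 were positive (0.51, 0.42 and 0.91). Without WT replicate B, by contrast, all 3 were negative (-0.61, -0.68 and -0.20).

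LATS2 varied little between constructs. The A libraries had 12.2 (WT), 11.1 (R820W), 10.1 (N737H) and 10.9 CPM (I593T), and the B libraries 7.92, 7.44, 8.91 and 9.20 CPM in the same order. Every B library was below every A library, as for 10.0% of all genes tested. Relative to WT, R820W was at -0.11, N737H at -0.082 and I593T at -0.001 on the log2 scale (SE 0.30, n = 2 per group). Each value took both signs when 1 WT library or the other was left out.

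AXL was lowest with R820W. WT A and B had 288 and 210 CPM, R820W A and B 198 and 180, N737H A and B 279 and 281, and I593T A and B 275 and 323. Both R820W libraries lay below both WT libraries, as was the case for 12.8% of all genes tested, and also below the other 4 variant libraries. Of all genes, 2.94% had both R820W libraries below the other 6. On the log2 scale R820W stood at -0.40 ± 0.19 (SE, n = 2 per group) from WT, N737H at 0.17 ± 0.19 and I593T at 0.27 ± 0.19. Leaving out WT replicate A gave -0.15 for R820W, 0.42 for N737H and 0.51 for I593T. Leaving out WT replicate B gave -0.61, -0.024 and 0.062.

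In 7 comparisons of constructs (3 of 1 variant and WT, 1 of the averaged variants and WT, 3 of variant pairs), edgeR's quasi-likelihood test called 0 of the 6 genes and 0% of the 14834 genes tested at a Benjamini-Hochberg adjusted p under 0.05. At an unadjusted p under 0.05 there were 154 genes for R820W, 362 for N737H and 212 for I593T against WT, where 742 would come by chance. With the letter as a replicate block these counts were 384, 670 and 500. The main fit left the letter out. A spread shared by the libraries of 1 letter thus counted as noise in it, and its calls may be too few. DESeq2 called 0 genes for R820W and N737H against WT and 3 for I593T, of which CYR61 was 1, and limma voom called 0 in each. Without a filter on low counts edgeR called 8 genes for I593T, CYR61 among them. CYR61 was chosen by such values, so nothing is read from its calls. A fitted log2 fold change above 1 was found for CYR61, CTGF and ANKRD1 with I593T and for CYR61 and ANKRD1 with N737H, against 2.74% and 5.66% of all genes. Both libraries lay above both WT libraries for CYR61 with R820W, where 12.6% of all genes did. The same held for CYR61 and ANKRD1 with N737H (9.92% of all genes) and with I593T (9.61%).

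**Figure D3:**
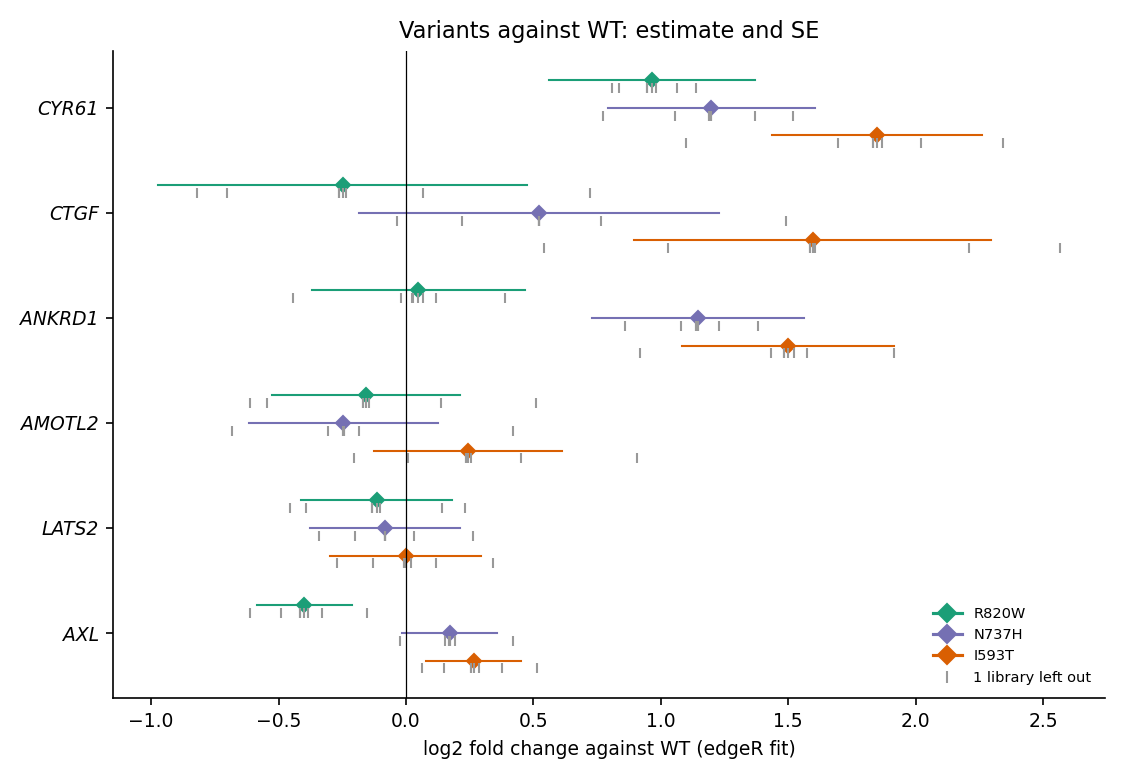
Fitted log2 fold change against WT (x axis) for each of the 6 genes (y axis) and 3 variants; diamonds are estimates from all 8 libraries, lines 1 SE to each side, and grey ticks the estimate with 1 library left out. CYR61 stays above 0 for every variant and library left out. AMOTL2 and LATS2 have ticks on both sides of 0 for all 3 variants, and CTGF, ANKRD1 and AXL for at least 1.

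By mean level, the order of the constructs was shared by CYR61 and ANKRD1 and, with R820W lowest, by CTGF and AXL. CYR61 ran from WT (51.3 ± 8.19 CPM, SD, n = 2) through R820W (100 ± 10.0) and N737H (118 ± 44.8) to I593T (185 ± 106), and R820W with N737H, and N737H with I593T, differed by less than the wider SD of the pair. ANKRD1 had the same order, with WT (4.28 ± 0.292) and R820W (4.41 ± 1.70) apart by less than their spread, as were N737H (9.49 ± 2.65) and I593T (12.1 ± 5.71). CTGF and AXL were lowest with R820W, at 0.951 ± 0.346 and 189 ± 12.8 CPM, and highest with I593T, at 3.47 ± 2.58 and 299 ± 34.3. For CTGF every neighbouring pair in that order lay within the wider SD. AMOTL2 was lowest with N737H (54.0 ± 2.07) and highest with I593T (75.7 ± 16.7), and LATS2 ranged over only 9.26 to 10.0 CPM.

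Between variants, the 6 genes were all higher with I593T than with R820W in the fitted values, by 0.11 (LATS2) to 1.84 (CTGF) on the log2 scale, as were 49.7% of all genes. CYR61, CTGF, ANKRD1 and AXL had both I593T libraries above both R820W libraries, against 13.2% of all genes. For N737H over R820W this held for CTGF, ANKRD1 and AXL, against 13.1% of all genes, and for I593T over N737H for AMOTL2 alone, against 10.7%. For CTGF both separations lay within counting error in A. There R820W had 29 counts (1.20 CPM), N737H 27 (1.31) and I593T 41 (1.65), with overlapping Poisson intervals. The comparisons share libraries with those against WT. With I593T in place of R820W, ANKRD1 differed by 1.45 ± 0.42 (SE, n = 2 per group) and AXL by 0.66 ± 0.19.

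The comparison of B with A libraries, which played no part in the choice of the genes, was tested with the construct as a term. The series text speaks of 2 independent experiments, which the letters may stand for, but no label ties them together. None of the 6 genes passed, while 480 genes (3.24% of those tested) did. LATS2 came nearest, with a log2 fold change of -0.40 ± 0.14 (SE, n = 4 per letter, edgeR adjusted p = 0.152) and lower values in B for 4 of 4 constructs, as for 17.8% of all genes. The values for CYR61 (0.38 ± 0.26), CTGF (0.11 ± 0.55), ANKRD1 (0.27 ± 0.29), AMOTL2 (-0.35 ± 0.24) and AXL (-0.086 ± 0.12) had adjusted p-values of 0.429, 0.930, 0.611, 0.420 and 0.706 (edgeR). At an unadjusted p under 0.05 only LATS2 was found among the 6, and 3417 genes in all, and DESeq2 and limma voom also called 0 of the 6. The number of genes called was 0 without R820W replicate A or without R820W replicate B, 25 without I593T replicate A, 32 without I593T replicate B, 965 without WT replicate A, and reached 1138 when WT replicate B was left out. Without I593T replicate B the value was 0.084 for CYR61, -0.53 for CTGF and -0.009 for ANKRD1.

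These averages combined steps that were unlike in the 4 constructs, each step being 1 B library against 1 A library. For each of the 6 genes the step from A to B was higher with N737H and with I593T than with WT and with R820W. For CYR61 the log2 difference, B minus A, was -0.33 with WT, -0.20 with R820W, 0.79 with N737H and 1.25 with I593T. For CTGF it was -1.41, -0.69, 0.56 and 1.63 in the same order of constructs. For ANKRD1 it was 0.14, -0.79, 0.57 and 0.99. AMOTL2 had -1.12, -0.67, -0.078 and 0.45, LATS2 -0.62, -0.57, -0.18 and -0.24, and AXL -0.46, -0.14, 0.014 and 0.23. Of all genes tested, 20.5% had this arrangement, which was picked after the values were seen. The difference in the step was not tested. CARD14 RNA had the same arrangement, from 444.1 to 1005 CPM with N737H and from 499.6 to 1394 with I593T, against 1127 to 978 with WT and 1190 to 1410 with R820W. Over the 8 libraries its Pearson correlation with CYR61 was 0.19 (Spearman 0.29), and -0.066 without I593T B and WT B. Its part in the result was not tested.

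**Figure D4:**
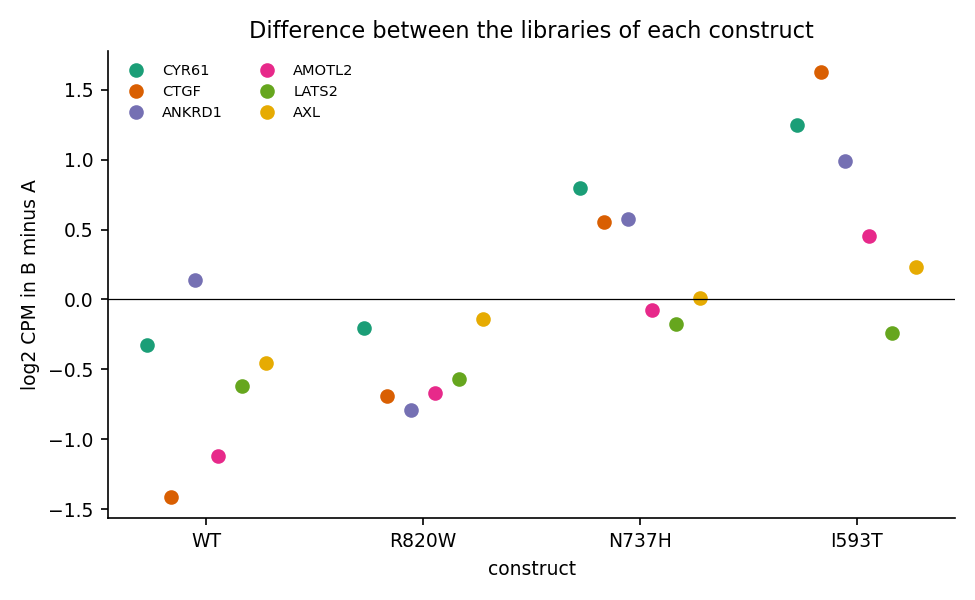
Difference in log2 CPM between the B and the A library (y axis) of each construct (x axis), 1 point per gene. For each of the 6 genes the points for N737H and I593T lie above those for WT and R820W; for CTGF they run from -1.41 with WT to 1.63 with I593T.

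Across the 8 libraries CYR61 varied most like ANKRD1 and CTGF among the 6 genes. The Pearson correlation of log2 CPM with CYR61 was 0.82 for ANKRD1 (Spearman 0.79) and 0.80 for CTGF (Spearman 0.69). Without the 2 libraries farthest from the median of CYR61, I593T B and WT B, the Pearson value was 0.68 for ANKRD1 and 0.15 for CTGF, so the likeness of CTGF rested on those libraries. It was 0.44 for AXL, 0.42 for AMOTL2 and -0.031 for LATS2 over all 8. CTGF and AXL had 0.83, and 0.88 without the 2 libraries farthest from the median of CTGF. These values describe 8 libraries that share constructs and letters, and no p is given. Among 9583 other genes with a mean of at least 5 CPM, those most like CYR61 were FBXW2 (Pearson 0.98), WDR85 (0.97), TNFRSF10B (0.96), RRP7B (0.94) and FBXW11 (0.94). TNFRSF10B codes for a death receptor for TRAIL, and FBXW2 and FBXW11 for F-box proteins of ubiquitin ligases. FBXW2 ran over only 76.9 to 94.7 CPM, a much narrower range than that of CYR61, and TNFRSF10B over 26.1 to 53.0. ANKRD1 ranked 214 and AXL 1308 by the same measure. Most of these places changed with the measure. By Spearman's rho SMYD2, UBE2D2 and BICD1 entered the first 5 beside TNFRSF10B and RRP7B, with FBXW11 level with RRP7B at 0.952. After centring each letter only FBXW2 kept a place, and TONSL, TSPAN4, LYSMD2 and LTBP3 took the others.

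The wider set of YAP and TEAD targets had medians near those of all genes. Of 16 further genes listed here as YAP and TEAD targets, 0 passed in any comparison of constructs (edgeR adjusted p). At an unadjusted p under 0.05 there were 0 of 16 against WT for each variant, and 4 of 16 for R820W against I593T, where 1.23% of all genes were. Those 4, named after their values were seen, were CRIM1, FJX1 and FOXF2, higher with I593T in the fit, and CCDC80, lower with it. R820W against N737H had 2 of 16, CRIM1 and NUAK2, beside 1.63% of all genes. The median log2 fold change of the 16 was -0.070 with R820W, 0.022 with N737H and 0.047 with I593T, beside -0.011, -0.028 and -0.024 over all genes. With I593T 9 of 16 were higher than with WT, beside 45.6% of all genes. The 4 with the highest mean CPM, with I593T against WT, were F3, or tissue factor (0.19 ± 0.32 SE, n = 2 per group), IGFBP3, a binding protein of insulin-like growth factors (0.75 ± 0.68), MYOF, a membrane-repair protein (-0.20 ± 0.17), and NT5E, the ecto-enzyme CD73 (-0.14 ± 0.27). IGFBP3 was at 376 and 167 CPM in WT A and B and at 199 and 711 with I593T, a wide spread in both groups. Of the 16, 9 had the arrangement of steps from A to B described above, F3 and IGFBP3 among them, beside 20.5% of all genes. So had 7 of 15 Hippo regulators and 2 of 8 YAP and TEAD cofactors. In the other lists described below it was found for 4 of 11 SRF and MRTF targets and 3 of 8 TGF-beta response genes. It also held for 3 of 7 matrix receptor genes, 3 of 10 immediate-early genes, 1 of 2 AXL-related genes and 0 of 1 CCN gene. The arrangement was thus not particular to YAP targets.

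No tested gene of the YAP machinery itself passed against WT, which with n = 2 per group does not show equal levels. Of YAP1, WWTR1 (which codes for TAZ), the 4 TEAD genes and 4 VGLL cofactor genes, 8 of 10 were tested and 0 passed for any variant. Their median log2 fold changes were -0.078 with R820W, -0.15 with N737H and 0.002 with I593T. Of the 8, 6 were below WT with R820W, 7 with N737H and 4 with I593T, beside 52%, 54.2% and 54.4% of all genes. With I593T, WWTR1 was at -0.090 ± 0.15 (SE, n = 2 per group), TEAD1 at -0.077 ± 0.27, TEAD4 at 0.12 ± 0.17 and VGLL4 at -0.037 ± 0.19. Of 15 Hippo kinases and upstream regulators 0 passed, with medians of -0.14, -0.11 and -0.073, and the scaffold MOB1A (-0.23 ± 0.17), the tumour suppressor NF2 (0.13 ± 0.20), FRMD6 (-0.28 ± 0.36) and the kinase STK4, or MST1 (-0.22 ± 0.18), are its members with the highest mean CPM, with I593T values. Of the 15 Hippo genes, 10 were below WT with R820W, 11 with N737H and 9 with I593T. All of these are RNA levels, and YAP phosphorylation or location was not measured here.

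Of the ligands, receptors and related pathways, again 0 genes passed edgeR's adjusted threshold in any comparison of constructs. At an unadjusted p under 0.05 only ITGA5 with N737H was found against WT, 1 of 7 tested matrix receptor genes, beside 2.44% of all genes. ITGA5 and LRP1 had such a p for R820W against N737H (2 of 7, beside 1.63% of all genes). MYL9 had it for R820W against I593T (1 of 11 SRF and MRTF targets, beside 1.23%). For N737H against I593T, ITGA5 (1 of 7) and FLNA (1 of 11) had it, beside 1.14%. These genes were named after their values were seen. The other CCN gene that could be tested, NOV, was at -0.31 ± 0.59 with I593T (SE, n = 2 per group), and WISP1, WISP2 and WISP3 were too low to test. Of 8 integrin and matrix receptor genes, 7 were tested, and 5 of 7 were lower with I593T (median -0.15), beside 54.4% of all genes. ITGA5, the fibronectin receptor subunit, was at -0.83 ± 0.23 with N737H and -0.18 ± 0.23 with I593T, ITGB1 at -0.15 ± 0.22, ITGA6 at -0.26 ± 0.18 and the syndecan SDC4 at -0.14 ± 0.27 with I593T. GAS6, the ligand of AXL, was at 0.66 ± 0.31 with I593T and at -0.027 ± 0.31 with N737H. The former rested on I593T B, with 74.1 CPM against 34.9 in I593T A and 34.8 and 34.1 in WT, and ran from 0.018 to 1.10 over the alternatives. TYRO3, a relative of AXL, was at 0.12 ± 0.28 with I593T. Targets of SRF and MRTF, which respond to actin and also drive CYR61 and CTGF, had a median of 0.034 with I593T over 11 tested genes. Among them ACTB was at 0.034 ± 0.18, CNN2 at 0.024 ± 0.16, VCL at -0.13 ± 0.20 and FLNA at 0.27 ± 0.23. TGF-beta response genes had a median of 0.073 over 8, with ID1 at -0.13 ± 0.62, SKIL at -0.16 ± 0.40 and TGFBI at 0.16 ± 0.19.

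Immediate-early genes, a class to which CYR61 also belongs, had positive medians with every variant, 0.68 with R820W, 0.33 with N737H and 0.56 with I593T over 10 genes, beside the medians near 0 over all genes. None passed edgeR's adjusted threshold, and at an unadjusted p under 0.05 there were 2 with R820W, 0 with N737H and 1 with I593T, and 3 for R820W against N737H (FOS, FOSB and ATF3). Of all genes tested, 1.04%, 2.44%, 1.43% and 1.63% had such a p, in the same order. The 2 with R820W, FOSB (1.08 ± 0.24, SE, n = 2 per group) and ATF3 (1.20 ± 0.35), both stress-responsive transcription factors, were named after their values were seen, as was FOSB with I593T (0.72 ± 0.24). With R820W 9 of 10 had a positive value, with N737H 6 and with I593T 7, beside 48%, 45.8% and 45.6% of all genes. FOS, an AP-1 subunit, was at 0.71 ± 0.47 (SE, n = 2 per group) with R820W and -0.21 ± 0.47 with I593T. Its WT libraries had 114 and 331 CPM, and over the alternatives its values ran from 0.14 to 1.68 and from -0.78 to 0.77. With R820W and I593T in turn, IER2 was at 0.65 ± 0.50 and 0.97 ± 0.50, KLF6 at -0.007 ± 0.36 and -0.35 ± 0.36, and EGR1 at 0.031 ± 0.20 and -0.19 ± 0.20. IER2 had the same arrangement of steps as CYR61, at 65.1 CPM in WT B and 256 in I593T B against 114 and 95.2 in A.

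**Figure D5:**
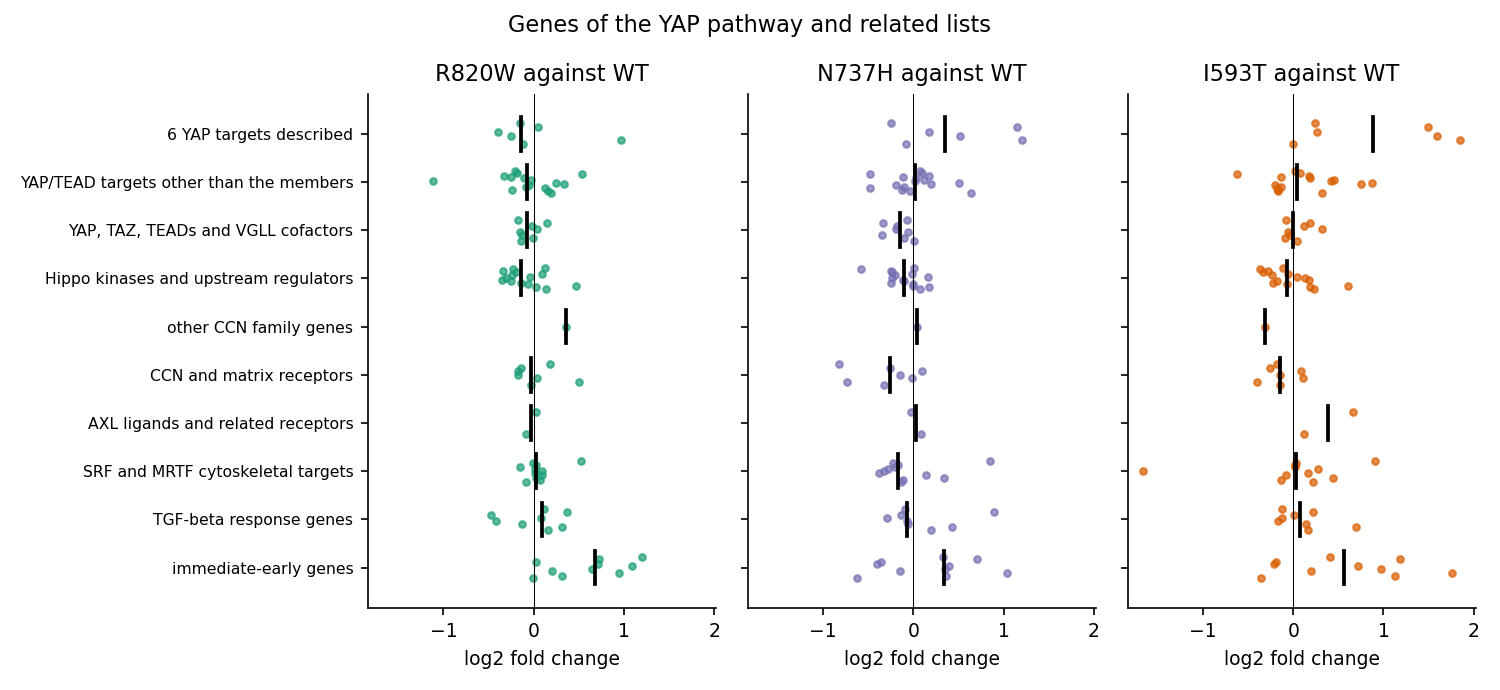
Log2 fold change against WT (x axis) of each tested gene of the 6 described targets and 9 related lists (y axis), in 1 panel per variant; black bars are list medians. The 6 described genes, chosen with such values known, have a median of 0.88 with I593T, while the 16 other YAP targets have 0.047 and the immediate-early genes 0.56.

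Between the letters, 6 of the 78 tested genes of these lists passed, beside 3.24% of all genes. The cofactor gene VGLL3 fell from 12.6 to 15.0 CPM in the 4 A libraries to 5.41 to 6.99 in the B libraries (log2 fold change -1.14 ± 0.15 SE, n = 4 per letter, edgeR adjusted p = 0.016). TGFB2, a YAP target that codes for a TGF-beta ligand, fell from 20.4 to 35.4 CPM to 10.9 to 13.7 (-1.17 ± 0.12, adjusted p = 0.00939, edgeR). The integrin subunit ITGAV fell by 0.73 on the log2 scale (adjusted p = 0.0154), KLF6 by 0.65 (0.0199) and SKIL by 0.70 (0.0467), and the YAP target RBMS3 rose by 1.46 (0.038, all edgeR). Each was separated in the same direction in 4 of 4 constructs. Each of these 6 calls was lost when either R820W library or either I593T library was left out, with adjusted p-values of 0.0748 to 0.226, while the fold changes kept their direction.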

How the data were processed

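Counts are as the authors deposited them: whole-number reads for each gene symbol, without normalization, in a single table. Per the labels, the RNA came from sorted cells (mirVana extraction, NEBNext low-input library kit). The submitters' processing notes name hg19, FastQC, MACS2 and DESeq2 without version or role; the aligner, counter, annotation and strand setting are not stated. The 6 genes and the lists were chosen with earlier results of these data known. Of 28518 genes, 14834 passed filterByExpr, holding 99.9% of the counts. They were normalized by TMM and tested with edgeR 4.0.16 (R 4.3.3; quasi-likelihood, two-sided, all 8 libraries, 4 residual degrees of freedom, or 3 with the letter added to the group), with Benjamini-Hochberg adjustment and a threshold of 0.05. SEs were derived from the fold change and its F statistic. Log2 CPM used a prior count of 2. The fit was checked on simulated data. No pair of libraries had a chi-square per gene under 6.3, so each counted as 1 sample. The series text speaks of 2 independent experiments, but no label ties them to the letters, so p-values cover the spread among libraries only, which may be technical. Alternatives were RLE size factors, no filter, a filter of 10 counts in 6 libraries, DESeq2 1.42.0, limma 3.58.1 voom, the replicate block, removal of CARD14, a fit of the compared groups alone, and omission of single libraries. The genes named from a list are the 4 with the highest mean CPM and those past the threshold, and the genes most like CYR61 are the 5 with the highest Pearson value among genes of at least 5 CPM. IGFBP3 and IER2 were given per library after their values were seen. The values of 1 gene that this rule selects are not reported here.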

Additional observations from a re-analysis of the deposited data

Results flagged for a closer look

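CTGF and AMOTL2 had opposite directions in the letters. In A all 3 variants lay below WT, with a mean log2 difference of -0.29 for CTGF and -0.48 for AMOTL2, and in B all 3 lay above WT, with 1.62 and 0.54. The difference between the letters was not tested, and 11.2% of all genes had the same arrangement. Among the 4 A libraries, AXL in R820W A (198 CPM) lay apart from the other 3 by more than Dixon's criterion allows, which chance gives for about 1 in 20 groups. The check was run for every described gene in each letter. The 4 libraries are of different constructs and not replicates.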

How the results depend on the processing

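With 2 libraries per construct, counts of genes past the threshold were 0 in each comparison of constructs and 480 between letters. Without the filter on low counts they were 2 for R820W, 2 for N737H, 8 for I593T and 2 for the averaged variants against WT, 8 for R820W against N737H, 10 for R820W against I593T, 11 for N737H against I593T, and 760 between letters. DESeq2 gave 3 for I593T against WT, 2 for R820W against N737H, 1 for N737H against I593T and 1287 between letters, and the letter without a group term gave 1324. With 1 library left out the counts were 0 to 2 for I593T against WT, 0 to 1 for the mean of the variants, 0 to 2 for R820W against I593T, 0 to 2 for N737H against I593T, 0 in the other comparisons of constructs, and 0 to 1138 between letters. For CYR61 with I593T the log2 fold change was 1.098 to 2.341 over those fits. SKIL between letters had an adjusted p of 0.0509 (edgeR) with the stricter filter. Unless stated here or beside the result, the cause was not tested.

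No label establishes a pairing by letter. Same-letter libraries deviated from their group means with correlations of 0.312 to 0.41, except 0.024 for WT with N737H. Most pairs thus shared part of their deviation. The common coefficient of variation between libraries was 0.262 without the letter and 0.19 with it (edgeR). The main fit of constructs left this shared spread in its error, so its calls of 0 genes may be conservative. With the letter as a replicate block, edgeR called 1 gene for R820W against N737H (CCL4L2) and 0 in the other comparisons of constructs. DESeq2 with the replicate block, added after the data were seen, called 1 for R820W, 20 for N737H, 3 for I593T and 3 for the averaged variants against WT, 28 for R820W against N737H, 5 for R820W against I593T and 1 for N737H against I593T. CYR61 was among those for I593T and for the mean, from which nothing is read because it was chosen by such values.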
